A study of Mus musculus with 8 samples.

Results

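The MHC class II presentation genes described here are 10 genes taken by symbol from the 52636 genes of a count table of mouse spleen. They comprise the chains of the classical class II molecules (H2-Aa, H2-Ab1 and H2-Eb1), the chains of H2-DO (H2-Oa and H2-Ob) and of H2-DM (H2-DMa, H2-DMb1 and H2-DMb2), the invariant chain gene Cd74 and the transactivator gene Ciita. All 10 were counted in every library, with 17 to 74082 reads, and all 10 were among the 17327 genes that passed the filter on low counts and were tested. The table came from RNA sequencing of whole spleens of C57BL/6 mice aged 6 weeks, in 4 groups of 2 samples. The groups were Lmna R527C mutants sampled 7 days after 4 Gy of irradiation, wild-type mice sampled 7 days after 4 Gy, untreated mutants sampled at day 0, and untreated wild-type mice sampled at day 0. R527C is an amino acid substitution in lamin A and lamin C, the nuclear lamina proteins made from Lmna. The sources used here do not say whether 1 or both copies of Lmna carried it, or whether a sample was 1 mouse. No unirradiated mice were sampled at day 7, so the dose and the 7 days cannot be told apart.

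Class II molecules are pairs of an alpha and a beta chain that show peptides from the endocytic pathway to CD4+ T cells. The invariant chain fills the groove of a new class II pair until it is cut away, H2-DM then exchanges the remaining fragment for a peptide, and H2-DO holds H2-DM back. Transcription of the chain genes and Cd74 depends on CIITA, the product of Ciita. CIITA binds no DNA itself and acts through RFX, CREB and NF-Y proteins bound to the X and Y boxes of their promoters. In the spleen, B cells carry class II constantly, dendritic cells carry it at high density, and macrophages increase it after interferon gamma. H2-DO is made mainly in B cells. C57BL/6 mice lack a working gene for the E alpha chain, so the H2-Eb1 transcript has no partner chain at the surface, and the E alpha pseudogene H2-Ea-ps had 1 read in 1 wild-type day 0 library and 0 reads in the other 7.

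The shared promoter boxes are shown because they are the feature through which the chain genes and Cd74 are known to be driven together. RefSeq promoter windows (GRCm38.p6) were on hand for 7 of the 10 genes, all but H2-Ab1, Cd74 and Ciita. They were searched on both strands over the 250 bases before the start for the letters AACNNATG, from the middle of the X box, and ATTGG, the inverted CCAAT of the Y box. The X letters were chosen with these sequences in view. In the sequences below, capitals mark the matched X letters on the left and the matched Y letters on the right, read 5′ to 3′ on the gene's own strand.
H2-DMb2, chr17:34145122-34145167, plus strand: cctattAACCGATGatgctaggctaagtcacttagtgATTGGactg
H2-Ob, chr17:34238814-34238856, plus strand: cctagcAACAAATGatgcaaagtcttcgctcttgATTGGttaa
H2-Eb1, chr17:34305772-34305816, plus strand: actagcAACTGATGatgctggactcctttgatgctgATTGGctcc
H2-Aa, chr17:34287863-34287904, minus strand: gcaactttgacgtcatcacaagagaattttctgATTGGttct
The X letters were followed by the Y letters after 23 bases in H2-DMb2, 20 bases in H2-Ob and 22 bases in H2-Eb1. H2-DMb1 held the same pair with a gap of 23 bases. All 46 bases of its stretch lie in annotated exon, against 0 bases for H2-DMb2, H2-Ob and H2-Eb1. The 7 genes had 8 windows, since H2-DMa had 2. The Y letters were in 7 of the 8 windows, all but 1 of the 2 for H2-DMa, and in 33.8% of the 32851 mouse promoter windows of the table. The X letters were in 4 of the 8 windows and in 7.71% of all windows. The pair at a gap of 10 to 30 bases was in the same 4 windows and in 0.161% of all windows, 53 in number. H2-Aa, H2-Oa and 1 window of H2-DMa had the Y letters without the chosen X letters, which says only that these letters are not in their windows.

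Total counts were 12100784 to 19455470 per library, and 0 counts in a library would allow a level of up to 0.131 to 0.350 CPM (reads relative to the library total as scaled by TMM). The mutant day 7 replicate 1 library stood apart. Its mean over 15 B cell markers was 2.77 on the log2 CPM scale, against 6.41 in mutant day 7 replicate 2, 5.72 and 6.72 at day 7 in wild type, 7.49 and 7.45 at day 0 in mutants, and 8.01 and 8.28 at day 0 in wild type. Its mean over 12 T cell markers was 3.70, against 5.47 to 6.75 in the other 7 libraries, and its mean over 9 erythroid markers was 12.7, against 8.96 to 11.5. Its summed level of 6 liver genes was 444 CPM, against 50.2 to 86.2 CPM in the other day 7 libraries and at most 1.30 CPM at day 0. All 4 day 7 libraries had 0 reads of Eif2s3y, Uty, Kdm5d and Ddx3y, which lie on the Y chromosome, and 1029 to 1776 CPM of Xist. All 4 day 0 libraries had reads of all 4 Y-linked genes and at most 0.262 CPM of Xist, so irradiation and this sex-linked difference cannot be told apart. Lmna was at 284 and 57.7 CPM in mutants and 213 and 113 CPM in wild type at day 7, and at 86.9 and 86.3 CPM in mutants and 108 and 81.3 CPM in wild type at day 0; a gene count cannot show a single-residue substitution.

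Levels were compared between genes as CPM per kilobase of annotated exon. In untreated wild-type spleens Cd74 was highest, at 1940 and 2742 CPM per kilobase. The classical chains came next, with 634 and 797 for H2-Eb1, 547 and 701 for H2-Ab1 and 399 and 469 for H2-Aa. H2-DMb2 followed at 139 and 171. H2-Ob had 65.9 and 76.4, H2-Oa 60.3 and 65.3, H2-DMb1 51.6 and 61.6, and H2-DMa 38.9 and 53.5. Ciita was lowest at 15.9 and 11.2. Neighbours in this order whose 2 libraries overlapped were H2-Eb1 with H2-Ab1, H2-Oa with H2-DMb1, and H2-DMb1 with H2-DMa. In these libraries H2-Aa stood 25.2-fold and 42.0-fold above Ciita on this scale. Cd74 was highest and Ciita lowest in each of the 8 libraries. H2-Ab1 stood above H2-Eb1 in all 4 day 7 libraries, with 109 and 487 against 78.0 and 450.5 in mutants and 287.5 and 597 against 239 and 485 in wild type. In all 4 day 0 libraries it stood below, with 412 and 431 against 538 and 514 in mutants and the values above in wild type.

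**Figure D1:**
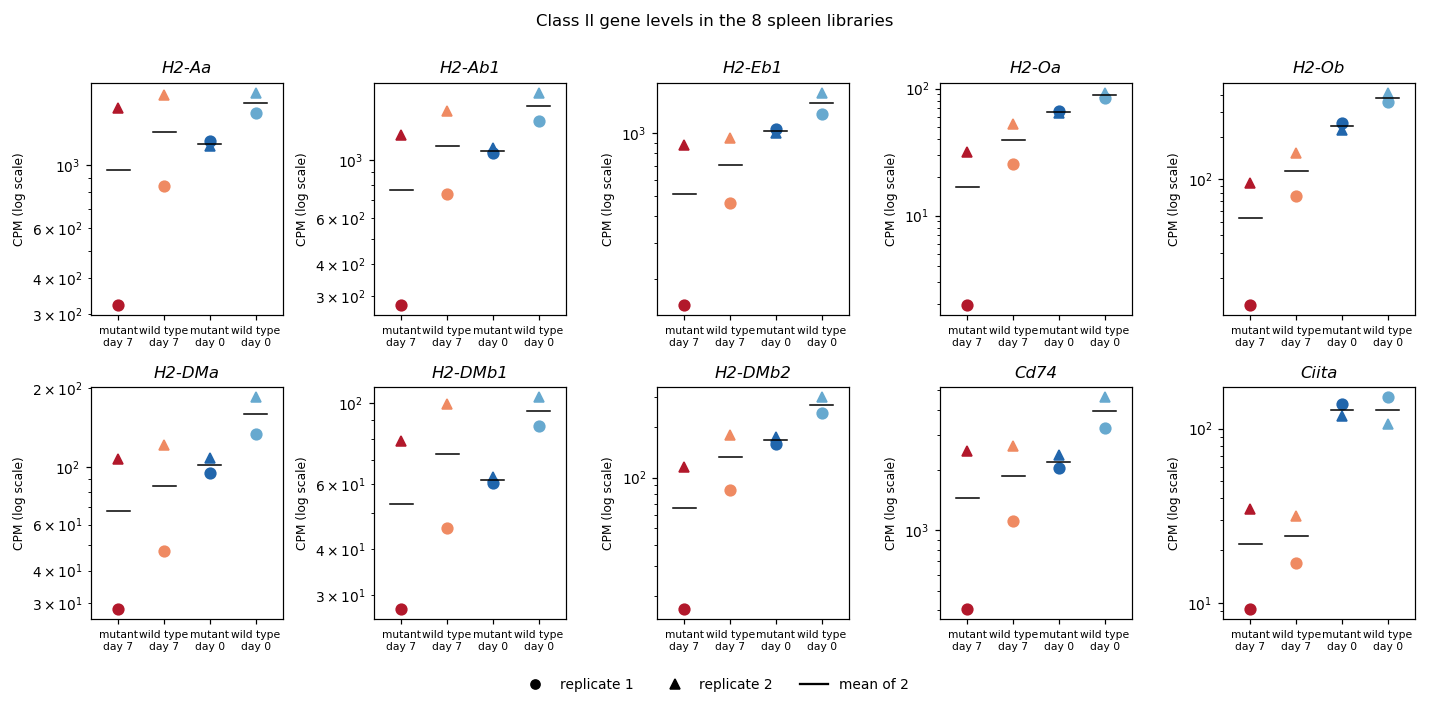
CPM (log axis) of each class II gene in the 8 libraries, by group; circles are replicate 1, triangles replicate 2 and bars the mean of 2. Mutant day 7 replicate 1 is the lowest library for all 10 genes, and Ciita at day 7 lies between 9.23 and 34.5 CPM, below all 4 day 0 libraries.

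Irradiation in wild type was examined first. All 10 genes averaged lower at day 7 than at day 0, with a median log2 fold change of -1.01 against 0.09 over all genes tested. In the same libraries the median was -1.85 for 15 B cell markers, -2.31 for 10 granulocyte markers and 0.999 for 9 erythroid markers, with 0 of these called by edgeR. Ciita had the lowest value. It was at 16.9 and 31.3 CPM at day 7 and at 151 and 107 CPM at day 0, a log2 fold change of -2.42 (SE 0.61). The groups did not overlap, with an unadjusted p of 0.00428 and an adjusted p (Benjamini-Hochberg over all genes tested) of 0.163 in edgeR's quasi-likelihood test. Dexi, which lies on the opposite strand and overlaps Ciita, had 27.5% as many reads as Ciita over the 8 libraries, and the sources used here do not state whether counting used strand.

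The H2-DO chains were next. H2-Ob, the beta chain, was at 75.7 and 155 CPM at day 7 and at 355 and 411 CPM at day 0 in wild type, a log2 fold change of -1.73 (SE 0.79, adjusted p = 0.306, edgeR). H2-Oa, the alpha chain, was at 25.5 and 52.6 CPM at day 7 and at 84.8 and 91.8 CPM at day 0, a log2 fold change of -1.18 (SE 0.92). Neither gene's groups overlapped, and neither passed the test.

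The A chains had smaller differences than the H2-DO chains. H2-Aa, the A alpha chain, was at 842 and 1762 CPM at day 7 and at 1517 and 1781 CPM at day 0 in wild type, a log2 fold change of -0.34 (SE 0.69) with overlapping groups. H2-Ab1, the A beta chain, had a log2 fold change of -0.50 with overlapping groups, and H2-Eb1, the E beta chain, one of -0.98 without overlap. Cd74 was at 1117 and 2625 CPM at day 7 and at 3257 and 4604 CPM at day 0, a log2 fold change of -1.07 (SE 0.79) without overlap. Among the H2-DM chains, H2-DMb2 had -1.04, H2-DMa -0.92 and H2-DMb1 -0.39, and of these 3 H2-DMb1 alone had overlapping groups. Brd2 overlaps H2-DMa on the opposite strand and had 198% as many reads as H2-DMa, so the H2-DMa values are uncertain.

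None of the 10 genes passed an adjusted p of 0.05 in wild type by edgeR, where 0.0577% of all genes did. That share is 10 genes, and 5 of them were Xist, Ddx3y, Eif2s3y, Kdm5d and Uty. It thus holds the sex-linked difference between day 0 and day 7. Of the class II genes 1 of 10 (Ciita) had an unadjusted p under 0.05 by edgeR, against 17.3% of all genes. DESeq2 called Ciita (adjusted p = 0.00422) and 6.56% of all genes. Limma-voom called 0 of 10 and 0.0289% of all genes. That share is 5 genes, 4 of them sex-linked (Xist, Ddx3y, Eif2s3y and Kdm5d). The fit on the 4 wild-type libraries alone called Ciita (adjusted p = 0.0142), H2-Ob (adjusted p = 0.0333) and 6.96% of all genes. Of the 10 genes, 7 were lower without overlap, against 27.8% of all genes tested. Without wild type day 7 replicate 1, 8 of 10 log2 fold changes were below 0, with a median of -0.59. H2-Aa was then at 0.08 and H2-DMb1 at 0.04. Without 1 or the other of the mutant day 7 libraries, which enter this comparison only through the shared spread, scaling and filter, Ciita, H2-Oa and H2-Ob were called in wild type (adjusted p of Ciita 0.00426 without replicate 1 and 0.00418 without replicate 2, edgeR), when 13% and 14.2% of all genes were called.

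The same comparison in mutants rested on 2 day 7 libraries that differed by 2.86-fold (H2-DMb1) to 16.0-fold (H2-Oa). Ciita was at 9.23 and 34.5 CPM at day 7 and at 138 and 119 CPM at day 0, a log2 fold change of -2.54 (SE 0.61, unadjusted p = 0.00329, adjusted p = 0.102, edgeR). H2-Ob was at 12.8 and 93.7 CPM at day 7 and at 253 and 225 CPM at day 0, a log2 fold change of -2.16 (SE 0.80, unadjusted p = 0.0277, adjusted p = 0.181, edgeR). H2-Oa was at 1.99 and 31.7 CPM at day 7 and at 66.4 and 64.6 CPM at day 0, a log2 fold change of -1.94 (SE 0.94). For these 3 genes both day 7 libraries were below both day 0 libraries.

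For H2-Aa, H2-Ab1, Cd74 and H2-DMb1 the mutant day 7 libraries straddled the day 0 libraries. H2-Aa was at 324 and 1587 CPM at day 7 and at 1211 and 1159 CPM at day 0, a log2 fold change of -0.31 (SE 0.69). H2-Ab1 was at 279 and 1251 CPM at day 7 and at 1059 and 1107 CPM at day 0, a log2 fold change of -0.50. Cd74 was at 406 and 2484 CPM at day 7 and at 2039 and 2364 CPM at day 0, a log2 fold change of -0.61 (SE 0.79). H2-DMb1 was at 27.4 and 78.6 CPM at day 7 and at 60.6 and 62.7 CPM at day 0, a log2 fold change of -0.21 (SE 0.53). In each of these 4 genes replicate 1 was below, and replicate 2 above, both day 0 libraries. H2-DMa (-0.58) overlapped too, and H2-Eb1 (-0.99) and H2-DMb2 (-1.32) did not.

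**Figure D2:**
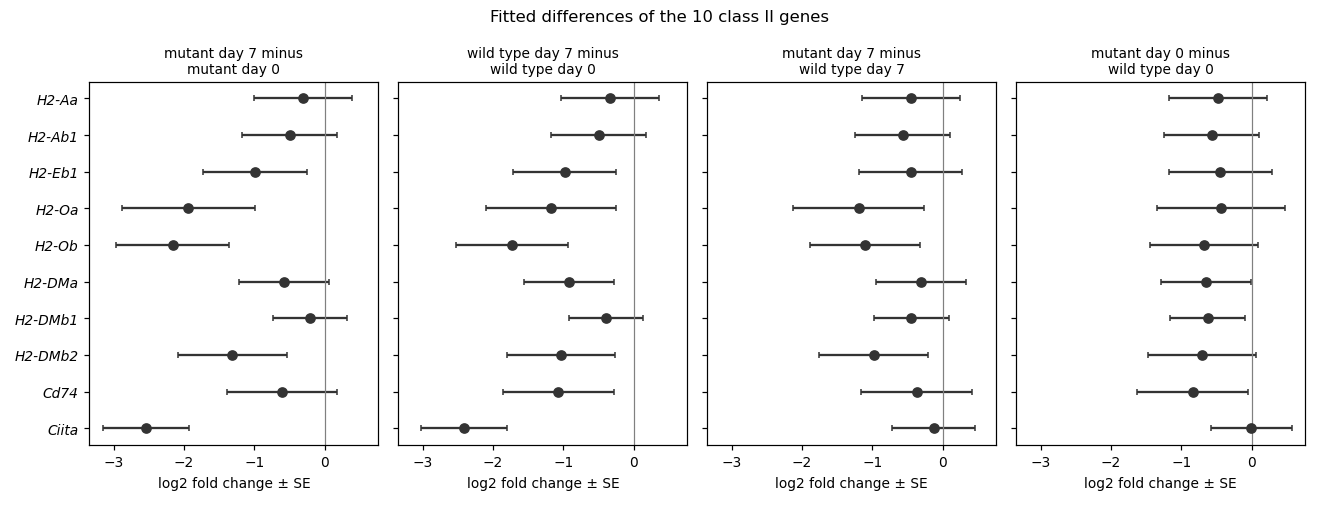
Log2 fold changes (x axis, points with SE bars, edgeR fit of 8 libraries) of the 10 genes in 4 comparisons. Ciita lies lowest after irradiation in both genotypes, at -2.54 in mutants and -2.42 in wild type, and nearest to 0 between the genotypes.

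In mutants 0 of 10 genes passed the adjusted threshold by edgeR, where 0.6% of all genes did. That share is 104 genes, among them the same 5 sex-linked genes as in wild type. An unadjusted p under 0.05 by edgeR was seen in 2 of 10 (Ciita and H2-Ob), against 22.1% of all genes. DESeq2 called both Ciita and H2-Ob, with adjusted p of 0.00151 for Ciita and 0.041 for H2-Ob, and 11.3% of all genes. Limma-voom called 0 of 10 and 0.606% of all genes. All 10 log2 fold changes were below 0, with a median of -0.80 (-1.36 by limma-voom) against 0.15 over all genes, and 5 of 10 were lower without overlap, against 25.7% of all genes. Without mutant day 7 replicate 1, only 5 of 10 were below 0, the median was -0.13, and Ciita was at -1.95 (SE 0.43, adjusted p = 0.0307, edgeR), H2-Ob at -1.40 and H2-Oa at -1.10; 6.89% of all genes were then called. Without mutant day 7 replicate 2 the median was -2.75 and 9 of 10 were called, all but H2-DMb1, as were 24.6% of all genes. In these fits the lone day 7 library is assumed to vary like the other groups.

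**Figure D3:**
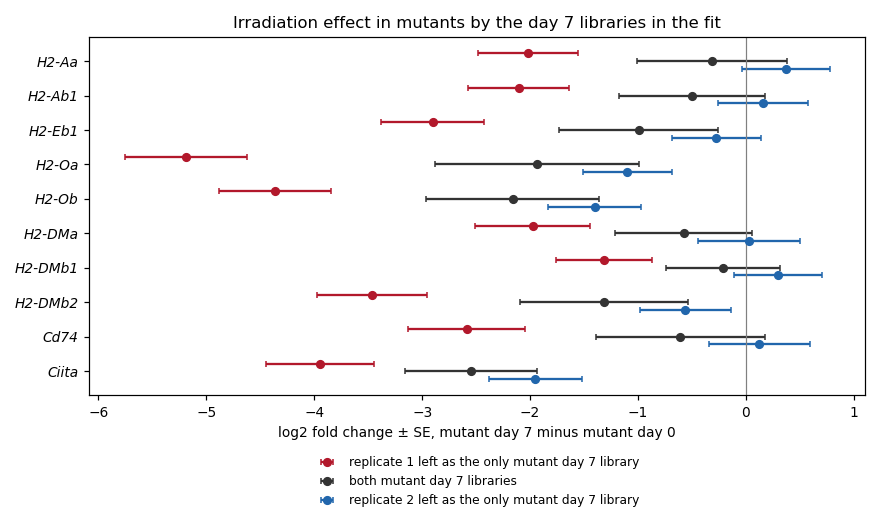
Log2 fold changes with SE bars of mutant day 7 minus mutant day 0, with both day 7 libraries (black) or with replicate 1 (red) or replicate 2 (blue) as the only one. With replicate 2 alone, 5 of 10 genes lie below 0 and Ciita is lowest at -1.95.

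The irradiation and genotype comparisons share libraries, so each is given by its own values. The difference between the irradiation effects of mutants and wild type was tested directly. It ranged from -0.76 (H2-Oa, SE 1.29) to 0.46 (Cd74, SE 1.11), with a median of -0.01 against 0.05 over all genes. By edgeR 0 of 10 members and 0% of all genes passed, with 0 of 10 at an unadjusted p under 0.05 (1.6% of all genes), and DESeq2 (0.0231% of all genes) and limma-voom (0%) also called 0 of 10. For Ciita it was -0.13 (SE 0.82). In each of the 10 genes the SE exceeded the difference, so differences of this size were not detectable with 2 samples a group.

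At day 0 the untreated mutants had lower levels than untreated wild type in 9 of the 10 genes without overlap, against 25% of all genes. H2-Ob was at 253 and 225 CPM in mutants and 355 and 411 CPM in wild type, and Cd74 at 2039 and 2364 CPM in mutants and 3257 and 4604 CPM in wild type. The log2 fold changes of these 9 genes lay between -0.84 (Cd74, SE 0.79) and -0.43 (H2-Oa, SE 0.91). Ciita was the exception, at 138 and 119 CPM in mutants and 151 and 107 CPM in wild type, a log2 fold change of -0.004 that took either sign under other scalings. The median of the 10 was -0.60 against -0.02 over all genes, and -0.39 without wild type day 0 replicate 2. The replicates of these 2 groups lay close together, within 1.16-fold in mutants and 1.42-fold in wild type.

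None of these day 0 differences passed the test in the fit of 8 libraries, where 0% of all genes did; 0 of 10 had an unadjusted p under 0.05, against 2.24% of all genes, and DESeq2 (0.341% of all genes) and limma-voom (0%) called 0 of 10. The fit of the 4 day 0 libraries alone called 2.81% of all genes and 0 of the 10. B cell markers were lower in the same libraries, at a summed 3224 and 3290 CPM in mutants and 4859 and 6019 CPM in wild type. Of these 14 of 15 were lower without overlap, with a median log2 fold change of -0.53. T cell markers were lower by as much, 11 of 12 without overlap and with a median of -0.53. Over all genes 25% were lower without overlap. All 10 granulocyte markers were higher without overlap (median 2.54), as were all 7 plasma cell markers (median 1.12), against 20.8% of all genes; edgeR called 0 of these 4 lists, and DESeq2 called 7 of the 10 granulocyte markers. In whole spleen, fewer cells of a type and less RNA per cell cannot be told apart, and the part of these cell types in the class II differences was not tested.

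At day 7 the mutants averaged lower than wild type in all 10 genes, with a median log2 fold change of -0.45 (-0.86 by limma-voom) against 0.02 over all genes, but the groups overlapped in all 10. The share of genes lower without overlap was 0 of 10, against 7.46% of all genes. H2-Oa had the lowest value, -1.19 (SE 0.93), at 1.99 and 31.7 CPM in mutants and 25.5 and 52.6 CPM in wild type. No gene of the 10 and 0% of all genes passed by edgeR, 0 of 10 had an unadjusted p under 0.05, against 4.02% of all genes, and DESeq2 (0.421% of all genes) and limma-voom (0%) called 0 of 10. Without mutant day 7 replicate 1 the median was 0.25, 3 of 10 were below 0 and 0 of 10 were called, against 2.57% of all genes. Without wild type day 7 replicate 2 it was 0.16, also with 3 of 10 below 0, and without mutant day 7 replicate 2 it was -2.18, with H2-Oa, H2-Ob, H2-DMb2 and H2-Eb1 called, as were 1.53% of all genes.

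The genes were then set against the mean log2 CPM of 15 B cell markers of the same library. All 15 markers had a negative log2 fold change after irradiation in each genotype, with medians of -2.04 in mutants and -1.85 in wild type. By edgeR 0 of 15 were called in either genotype. At an unadjusted p under 0.05 by edgeR stood 4 in mutants (22.1% of all genes) and 5 in wild type (17.3%). DESeq2 called 3 in mutants (11.3% of all genes) and 2 in wild type (6.56%), and limma-voom 0. None of the 15 markers was at 0 in any library. In mutant day 7 replicate 1 Fcer2a had 1 read (0.117 CPM), below that library's floor of 0.350 CPM, and it enters the mean. The distance of H2-Ob above the markers was 0.53 ± 0.55 in mutants and 0.54 ± 0.02 in wild type at day 7, and 0.43 ± 0.10 in mutants and 0.43 ± 0.04 in wild type at day 0 (log2, SD, n = 2 each). H2-Aa stood 4.89 ± 0.95 above them in mutants and 4.03 ± 0.05 in wild type at day 7, and 2.74 ± 0.02 in mutants and 2.54 ± 0.02 in wild type at day 0.

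The distance of Ciita from the markers was -0.42 ± 1.24 in mutants and -1.69 ± 0.08 in wild type at day 7, and -0.47 ± 0.13 in mutants and -1.16 ± 0.54 in wild type at day 0. In mutants the day 7 and day 0 libraries overlapped. That of H2-DMb1 in wild type was -0.14 ± 0.09 at day 7 and -1.58 ± 0.01 at day 0 (log2, SD, n = 2 each). The difference between day 7 and day 0 in these distances had a median in wild type of 0.83 for the 10 genes and 1.96 for all 17309 tested symbols outside the B cell list. In mutants it was 1.57 for the 10 genes and 2.93 for all of these.

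**Figure D4:**
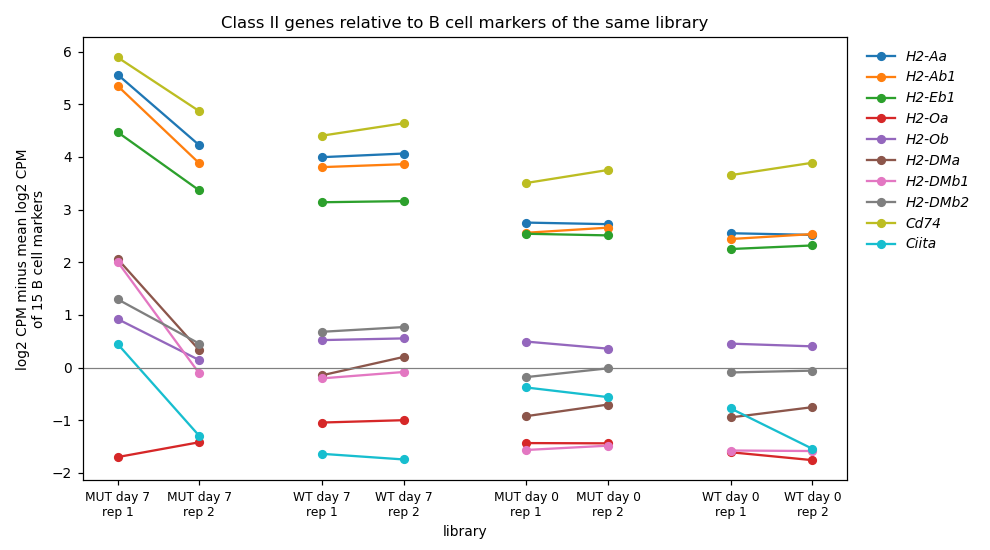
Log2 CPM of each class II gene minus the mean log2 CPM of 15 B cell markers, per library (x axis); lines join the 2 replicates of a group. In wild type H2-Ob averages 0.54 at day 7 and 0.43 at day 0, while H2-Aa stands at 4.03 at day 7 and 2.54 at day 0.

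Markers of other cells that carry class II were summarised next. The mean log2 CPM of 12 dendritic cell markers was 3.40 and 4.99 in mutants and 4.35 and 5.35 in wild type at day 7, and 4.69 and 4.46 in mutants and 4.57 and 4.70 in wild type at day 0. The mean of 16 macrophage and monocyte markers was 6.87 and 7.02 in mutants and 5.53 and 5.85 in wild type at day 7, and 6.51 and 6.42 in mutants and 6.02 and 6.05 in wild type at day 0. The dendritic cell integrin gene Itgax was at 30.7 and 89.0 CPM in mutants and 43.7 and 107 CPM in wild type at day 7, against 56.5 to 69.9 CPM in the 4 day 0 libraries. Zbtb46, a transcription factor gene of conventional dendritic cells, was at 53.8 and 45.2 CPM in mutants and 57.0 and 59.2 CPM in wild type at day 7, against 26.1 to 32.8 CPM in the 4 day 0 libraries. Thus Itgax lay on both sides of the day 0 libraries, while Zbtb46 was higher in all 4 day 7 libraries. Kmo was lower in all 4 of them, at 4.44 and 24.7 CPM in mutants and 15.7 and 34.6 CPM in wild type. At day 0 Kmo was at 57.3 to 74.2 CPM. Xcr1 was higher in all 4 day 7 libraries, at 30.1 and 52.0 CPM in mutants and 19.3 and 52.3 CPM in wild type. At day 0 it was at 15.8 and 13.1 CPM in mutants and 12.5 and 14.4 CPM in wild type. In wild type Clec9a and Clec10a were higher too, and Dpp4 and Ccr7 lower. There 4 of the 12 markers were higher without overlap (29.7% of all genes) and 3 lower (27.8%). In mutants 2 were higher (26.9%), Zbtb46 and Xcr1, and 2 lower (25.7%), Kmo and Cd209a.

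Of the 12 dendritic cell markers 5 in mutants and 9 in wild type had a log2 fold change above 0 after irradiation, with medians of -0.14 in mutants and 0.56 in wild type. By edgeR 0 of 12 were called, with 3 of 12 at an unadjusted p under 0.05 in each genotype. Over all genes that share was 22.1% in mutants and 17.3% in wild type. DESeq2 called Kmo, which fell, in mutants (11.3% of all genes) and Zbtb46, which rose, in wild type (6.56%). Of the 16 macrophage and monocyte markers 12 in mutants and 7 in wild type were above 0, with medians of 0.79 in mutants and -0.17 in wild type. C1qc, a complement component gene of macrophages, rose in mutants by edgeR, to 497 and 538 CPM at day 7, against 129 and 119 CPM at day 0 (log2 fold change 2.07, adjusted p = 0.0370). Limma-voom called it too. DESeq2 called 5 of the 16 in mutants, against 11.3% of all genes, and 0 in wild type, against 6.56%. Of those 5, C1qa, C1qb, C1qc and Vsig4 were higher at day 7 and Ly6c2 lower. Ly6c2 averaged 90.6 CPM at day 7 and 352 CPM at day 0 in mutants. At day 7 all 16 were above 0 in mutants over wild type, 12 of them without overlap against 10.4% of all genes. EdgeR called 0 of the 16 (0% of all genes) and DESeq2 5 (0.421%).

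Granulocyte markers had the lowest medians of the cell type lists after irradiation, -4.67 in mutants and -2.31 in wild type. In mutants 7 of the 10 fell by edgeR (Camp, Ltf, Mmp8, Mmp9, Ngp, S100a8 and S100a9), where 0.6% of all genes were called. In wild type edgeR called 0 of 10 (0.0577% of all genes) and DESeq2 6 (6.56%), with 9 lower without overlap, against 27.8% of all genes. Their summed level was 248 and 191 CPM in mutants and 229 and 104 CPM in wild type at day 7, and 5634 and 10770 CPM in mutants and 1616 and 1381 CPM in wild type at day 0. All 9 erythroid markers had log2 fold changes above 0 in both genotypes, with 0 of 9 higher without overlap in mutants, against 26.9% of all genes, and 8 of 9 in wild type, against 29.7%, and 0 of 9 were called by edgeR. The part of any of these cell types in the class II levels was not tested.

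Ratios between members within a library do not depend on the scaling between libraries. They were chosen after the levels were seen and carry no test. H2-Eb1 over H2-Aa, per kilobase, was 0.915 and 1.08 in mutants and 1.08 and 1.05 in wild type at day 7, and 1.69 and 1.69 in mutants and 1.59 and 1.70 in wild type at day 0. The ratio was thus lower in each of the 4 day 7 libraries, mutant replicate 1 included, than in any day 0 library. H2-DMb2 over H2-DMb1, the 2 alternative H2-DM beta chains, was 0.586 and 1.43 in mutants and 1.78 and 1.74 in wild type at day 7, and 2.51 and 2.67 in mutants and 2.69 and 2.77 in wild type at day 0. The 2 genes share 369 of the 1629 50-base stretches of the H2-DMb1 transcript, and the sources used here do not state how reads from these were assigned.

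H2-Ob over H2-DMa, an inhibitor chain over a chain of its target, was 0.289 and 0.562 in mutants and 1.02 and 0.818 in wild type at day 7, and 1.71 and 1.34 in mutants and 1.69 and 1.43 in wild type at day 0. The H2-DMa values in it are uncertain, as said above for Brd2. Both mutant day 7 libraries lay below both wild-type day 7 libraries in this ratio, in the H2-DMb2 ratio and in H2-Aa over Ciita. In H2-Aa over H2-Oa and H2-Aa over H2-Ab1 both lay above them, and in H2-Eb1 over H2-Aa the genotypes overlapped. H2-Aa over Ciita was 88.1 and 116 in mutants and 125 and 141 in wild type at day 7, and 22.01 and 24.5 in mutants and 25.2 and 42.0 in wild type at day 0. H2-Aa over H2-Oa was 60.4 and 18.5 in mutants and 12.2 and 12.4 in wild type at day 7, and 6.76 and 6.64 in mutants and 6.62 and 7.18 in wild type at day 0. The ratio of the 2 A chains, H2-Aa over H2-Ab1, lay between 0.669 and 0.858 in all 8 libraries.

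**Figure D5:**
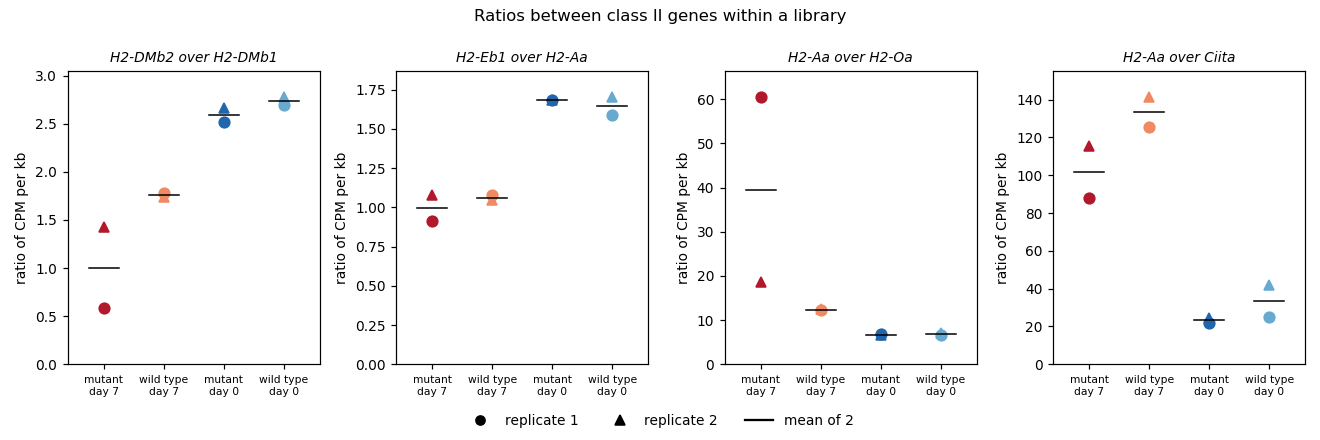
Ratios of CPM per kilobase between class II genes within each library, by group; circles are replicate 1, triangles replicate 2 and bars the mean of 2. H2-DMb2 over H2-DMb1 and H2-Eb1 over H2-Aa are lower, and H2-Aa over H2-Oa and over Ciita higher, in all 4 day 7 libraries than in any day 0 library.

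Other genes of the pathway were taken from lists, and by edgeR and limma-voom 0 of them passed in either irradiation comparison. Over all genes, 22.1% in mutants and 17.3% in wild type had an unadjusted p under 0.05 by edgeR, and DESeq2 called 11.3% in mutants and 6.56% in wild type. The 9 genes of peptide processing and class II turnover had median log2 fold changes of 0.40 in mutants and -0.12 in wild type after irradiation. At an unadjusted p under 0.05 by edgeR stood 4 of 9 in mutants and 2 of 9 in wild type, and DESeq2 called 3 in mutants (Ctsb, Ctsl and Lgmn) and 1 in wild type (March1). March1, a ligase that sends surface class II for degradation, was at 35.7 CPM at day 7 and 68.3 CPM at day 0 in mutants (log2 fold change -0.93, adjusted p = 0.217, edgeR). In wild type it was at 25.6 CPM at day 7 and 65.7 CPM at day 0 (log2 fold change -1.36, adjusted p = 0.184, edgeR). March8, of the same list, went the other way in wild type, at 529 and 346 CPM at day 7 and 170 and 103 CPM at day 0. Its log2 fold change there, 1.68, was the highest of the list. In mutants March8 was at 846 and 104 CPM at day 7 and at 173 and 129 CPM at day 0, with overlapping groups. The processing enzyme genes Lgmn and Ctsl had positive values in both genotypes, with 1.03 and 1.47 in mutants and 0.52 and 0.53 in wild type. Ctsh, a further cathepsin gene, had -0.85 in mutants and -1.38 in wild type, the lowest of the list in wild type. It was at 41.9 and 134 CPM in mutants and 45.9 and 93.1 CPM in wild type at day 7, and at 164 and 155 CPM in mutants and 161 and 201 CPM in wild type at day 0, without overlap in either genotype.

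The 11 genes of class II transcription had medians of -0.17 in mutants and 0.04 in wild type, with 2 of 11 in mutants and 0 of 11 in wild type at an unadjusted p under 0.05 by edgeR. DESeq2 called 1 in mutants, Spi1, which fell. It was at 27.3 and 62.7 CPM at day 7 and at 97.6 and 134.5 CPM at day 0 in mutants. Rfx5, a subunit of the X box complex, was at -0.70 in mutants and -0.66 in wild type, and Nfya, a subunit of the Y box factor, at 0.23 in mutants and 0.28 in wild type. The 8 genes of interferon gamma input had medians of 0.11 in mutants and -0.10 in wild type, with 0 of 8 at an unadjusted p under 0.05 by edgeR and 0 called by DESeq2. Ifng itself was at 1.29 and 5.04 CPM in mutants and 2.07 and 1.59 CPM in wild type at day 7, and at 1.92 and 1.82 CPM in mutants and 0.747 and 1.33 CPM in wild type at day 0, so that in mutants 1 day 7 library was below and 1 above both day 0 libraries. The 10 class I genes had medians of 0.07 in mutants and -0.17 in wild type, with 2 of 10 in mutants and 0 of 10 in wild type at an unadjusted p under 0.05 by edgeR. DESeq2 called 1 of them in mutants, B2m, which rose. It was at 4244 and 4352 CPM at day 7 and at 2324 and 2155 CPM at day 0 in mutants. H2-Eb2, a further E beta gene outside the 10, was at 3.97 and 24.6 CPM in mutants and 19.7 and 24.2 CPM in wild type at day 7, and at 59.2 and 48.4 CPM in mutants and 56.9 and 56.0 CPM in wild type at day 0, with log2 fold changes of -1.89 in mutants and -1.36 in wild type; DESeq2 called it in mutants.

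Of the 10 genes, 8 lie within 224335 bases of chromosome 17 of GRCm38 (start 34092340, end 34316674), and Ciita lies on chromosome 16 (start 10480059, end 10528418). The same interval holds 9 other annotated genes, and of the 8 tested 0 were called after irradiation by edgeR, with 1 in mutants and 0 in wild type at an unadjusted p under 0.05. Over all genes 22.1% in mutants and 17.3% in wild type had such a p. DESeq2 called 1 of the 8 in mutants, where it called 11.3% of all genes, and limma-voom 0. In wild type all 8 had log2 fold changes below 0, from -1.58 (Gm15821) to -0.08 (Tap2) with a median of -0.61, and in mutants 6 of 8 did, from -1.03 (Gm15821) to 0.33 (Gm20496) with a median of -0.24. The peptide transporter genes Tap1 and Tap2, which serve class I, stand between the H2-DM and H2-Ob genes. They were the nearest to 0 of the 8 in both genotypes, with log2 fold changes of -0.20 and 0.003 in mutants and -0.10 and -0.08 in wild type.

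Across the 8 libraries each member followed the mean of the others, with Pearson's r from 0.827 (Ciita) to 0.997 (H2-Eb1). This is a description over libraries that share the group differences and the low mutant day 7 replicate 1 library. Among 10851 tested genes of at least 5 CPM, the 10 with the highest r to the members' mean were Relb (0.998), Rasal3, Mrgpre, Il10ra, Rftn1, H2-T-ps, Gimap5, Rcsd1, Tbc1d10c and Rubcnl (0.992). Relb, a subunit of NF-kappaB, was at 20.9 and 65.5 CPM in mutants and 42.3 and 69.9 CPM in wild type at day 7, and at 69.6 and 71.8 CPM in mutants and 83.5 and 96.3 CPM in wild type at day 0.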

How the data were processed

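The deposited file held whole-number read counts per gene, made by the authors and not normalised, with 1 column for each of 8 spleen samples. The submitters' processing notes name featureCounts, Subread and Trim Galore as tools and mm10 and hg38 as builds. Not given in the sources used here are the versions, the annotation release, the use of strand and the treatment of multi-mapped reads. Per the labels' protocols, RNA was taken from frozen spleens with Trizol and mRNA libraries were made; a growth protocol for human cells was not used.

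Groups and replicate numbers came from the sample titles. No label says whether replicates are separate mice, so p-values measure the spread between samples, which may be technical. Symbols were found for 52403 of 52636 identifiers in GENCODE M21 (GRCm38). Total counts were 12100784 to 19455470 per library; floors of 3 counts cover counting error only. Genes were kept by filterByExpr (minimum count 10, minimum total 15). CPM use TMM-scaled totals. The test was edgeR 4.0.16's quasi-likelihood F test (R 4.3.3) in 1 fit of 8 libraries with a term per group, with p-values adjusted by Benjamini-Hochberg over 17327 genes (threshold 0.05). Fits were tested on simulated data. Alternatives were DESeq2 1.42.0, limma-voom (limma 3.58.1), other scaling, filters and samples, and a replicate block. List means use log2 CPM with a prior count of 2. Exon lengths are unions of GENCODE M21 exons. Promoter windows are from RefSeq (GRCm38.p6).

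Members and lists were chosen with earlier results of these data known. Genes named were the 10 members, Lmna, up to 4 genes of a pathway list, markers of cell types that moved with them, and the 10 genes nearest to the members' mean (Pearson's r, mean of at least 5 CPM). The last leaves out predicted genes, antigen receptor segments and genes tied to sex. H2-Eb2, Nfya, Ifng, Ctsh, March8, Zbtb46, Kmo, Dpp4, Ccr7, Xcr1, Clec9a, Clec10a, Cd209a, C1qa, C1qb, C1qc, Vsig4, Ly6c2, Fcer2a, Gm15821, Gm20496, Tap1, Tap2, Dexi, Brd2 and Xist were named after values were seen.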

Additional observations from a re-analysis of the deposited data

How the results depend on the processing

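The direction of all 10 genes after irradiation was the same under each other test, scaling, filter, block or choice of groups, and depended on the libraries. The median of the 10 was -1.36 by limma-voom and -1.19 with the replicate block in mutants, and -0.86 by limma-voom between genotypes at day 7. At day 0 it was -0.74 to -0.39 with a library left out. Members called after irradiation in wild type were 1 by DESeq2, 3 without a low-count filter, 2 in the fit of the compared groups and 0 to 3 with a library left out. In mutants they were 2 by DESeq2, 4 without the filter and 0 to 9 with a library left out. Between genotypes at day 7 they were 0 to 4 with a library left out. The count of all genes called after irradiation in mutants, 104, became 1962 by DESeq2, 2147 without the filter, 0 in the compared groups alone and 3 to 4428 with a library left out. In wild type the count of 10 became 1136 by DESeq2, 1580 without the filter, 1107 in the compared groups, 5 by limma-voom and 0 to 2551 with a library left out. At day 0 the count of 0 became 59 by DESeq2, 143 without the filter, 469 in the compared groups and 0 to 15 with a library left out. At day 7 it became 73, 168 and 0 to 482, and for the difference between irradiation effects 4 by DESeq2 and 52 without the filter. The fit of compared groups was not run for that difference. Same-numbered samples correlated at 0.035 to 0.465 in their deviations, and no label pairs them; with the replicate block 253 genes were called in mutants and 16 in wild type, and 0 members in every comparison.

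Signs turned as follows, and the cause was not tested. Ciita at day 0 was 0.012 with DESeq2 size factors, 0.0121 by DESeq2, 0.0214 by limma-voom, 0.0191 without the filter and 0.0209 in the compared groups. The difference between irradiation effects was -0.34 by limma-voom and -0.16 with the replicate block for H2-Aa, and -0.00143 by limma-voom for Cd74. With a library left out, wild-type irradiation ran from -0.99 to 0.078 for H2-Aa and -1.07 to 0.044 for H2-DMb1. In mutants it ran from -2.02 to 0.37 for H2-Aa, -2.11 to 0.16 for H2-Ab1, -1.98 to 0.026 for H2-DMa, -1.32 to 0.30 for H2-DMb1 and -2.59 to 0.12 for Cd74, with medians of -2.75 to -0.13, against -1.73 to -0.59 in wild type. Ciita at day 0 ran from -0.24 to 0.27. The genotype difference at day 7 ran from -2.07 to 0.33 for H2-Aa, -2.09 to 0.18 for H2-Ab1, -2.28 to 0.36 for H2-Eb1, -1.63 to 0.51 for H2-DMa, -1.46 to 0.21 for H2-DMb1, -2.27 to 0.45 for Cd74 and -1.45 to 0.56 for Ciita, with medians of -2.18 to 0.25. The difference between irradiation effects had medians of -1.58 to 0.74, and ran from -1.62 to 0.78 for H2-Aa, -1.54 to 0.72 for H2-Ab1, -1.85 to 0.78 for H2-Eb1, -3.95 to 0.15 for H2-Oa, -2.57 to 0.40 for H2-Ob, -0.996 to 1.16 for H2-DMa, -0.86 to 0.84 for H2-DMb1, -2.36 to 0.54 for H2-DMb2, -1.45 to 1.26 for Cd74 and -1.46 to 0.54 for Ciita.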
